A study of Mus musculus with 12 samples.

Results

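The 10 genes described here act in the mitochondrial and death receptor routes to apoptosis: Bcl2, Bcl2l1 (BCL-XL), Mcl1, Bax, Bak1, Bid, Bcl2l11 (BIM), Bbc3 (PUMA), Pmaip1 (NOXA) and Fas. They were taken by name from the 35275 genes of the expression table, and all 10 were tested, since each averaged 0.5 FPKM or more across the 12 libraries. FPKM is the number of fragments of a gene divided by transcript length and by the mapped fragments of the library, so levels of different genes are per length. RNA-Seq was performed on CD4+ T cells purified by negative magnetic selection from female mice (9 weeks old by the methods, up to 12 by a legend of the study), 1 library per mouse and 3 mice per group. The groups were B6 (C57BL/6) mice treated with anti-CD45RB, B6 mice left untreated, SLE123 mice (B6.NZMSle1/Sle2/Sle3) treated with anti-CD45RB and SLE123 mice left untreated. SLE123 is a congenic line on the B6 background with 3 lupus susceptibility regions from NZM2410 (Sle1 on chromosome 1, Sle2 on 4 and Sle3 on 7), so that a difference between the strains cannot be assigned to 1 region or gene. Bcl2 lies on chromosome 1 and Bax and Bbc3 lie on chromosome 7. The sources used here do not give the bounds of the regions, so whether a gene lies inside one was not examined. Anti-CD45RB (clone MB23G2) was given by the methods as repeated intraperitoneal injections of 100 μg each. It binds the RB isoforms of the CD45 phosphatase, and the labels name no control antibody for the untreated mice.

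Apoptosis through mitochondria is set by binding between BCL2 family proteins. Prosurvival members (BCL2, BCL-XL, MCL1) hold the pore-forming effectors BAX and BAK and the BH3-only proteins in check through a groove that binds the BH3 helix, and BH3-only members (BIM, PUMA, NOXA, BID) release or activate the effectors. BCL2 and MCL1 are known to keep naive T cells alive, BIM is the main BH3-only protein of T cell contraction and deletion, and Fas, a death receptor engaged by Fas ligand, removes chronically stimulated T cells and recruits BID into the mitochondrial route through caspase 8. Mice and people without functional Fas accumulate lymphocytes and develop autoimmunity.

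The BH3 helix is the part that the groove of prosurvival members binds. Its core is shown because the 8 members printed share it across the prosurvival, effector and BH3-only classes and Fas lacks it. Pmaip1 was not searched here. The coding sequences of GENCODE M21 (GRCm38) were searched for a leucine, any 3 residues, a glycine or alanine and an aspartate. The 8 family members shown held this pattern 1 time each and Fas held it 0 times, while 23.9% of 21061 coding genes held it, so that the pattern alone does not define the family. Each line gives 45 bases of a coding exon, 5′ to 3′ on the coding strand, and the capitals mark the codons of the pattern.
Bcl2: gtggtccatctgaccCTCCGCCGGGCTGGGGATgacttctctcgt
Bcl2l1: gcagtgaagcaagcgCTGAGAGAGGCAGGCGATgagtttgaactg
Mcl1: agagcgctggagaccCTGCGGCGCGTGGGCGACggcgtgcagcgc
Bax: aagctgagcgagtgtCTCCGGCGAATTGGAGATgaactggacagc
Bak1: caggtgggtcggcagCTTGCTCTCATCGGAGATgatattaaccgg
Bid: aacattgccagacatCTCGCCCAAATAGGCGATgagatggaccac
Bcl2l11: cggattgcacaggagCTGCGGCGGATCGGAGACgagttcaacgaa
Bbc3: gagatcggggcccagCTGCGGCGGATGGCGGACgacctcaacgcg
These stretches lie at chr1:106712572-106712616 (minus strand) for Bcl2, chr2:152829694-152829738 (minus) for Bcl2l1, chr3:95659421-95659465 (plus) for Mcl1, chr7:45465994-45466038 (minus) for Bax, chr17:27022528-27022572 (minus) for Bak1, chr6:120897286-120897330 (minus) for Bid, chr2:128147135-128147179 (plus) for Bcl2l11 and chr7:16313758-16313802 (plus) for Bbc3.

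The libraries held 13563594 to 23642949 fragments, recovered from the FPKM values, and intervals or floors drawn from them cover counting error only. In bulk RNA, fewer cells of a type and less RNA per cell cannot be told apart. The 9 T cell markers had a summed level of 1961 to 2502 FPKM in every library, the lowest in untreated SLE123 replicate 3. Other cells were present to unequal degrees. The summed level of 6 B cell markers was 6.11 to 7.30 FPKM in untreated B6, 25.0 to 33.5 in treated B6, 36.7 to 56.5 in treated SLE123 and 62.0 to 223 in untreated SLE123, the 223 being replicate 3. The summed level of 5 liver genes was 39.0 to 45.8 FPKM in the 6 B6 libraries and 43.7 in treated SLE123 replicate 1, against 0.0296 to 0.368 in the other 5 SLE123 libraries. Without that replicate the interaction was -1.73 for Pmaip1 (adjusted p = 0.00604) and -1.48 for Bbc3 (adjusted p = 0.0388). All 6 members called between the treated strains were still called. Leaving it out keeps liver RNA in every B6 library and next to none in SLE123, so strain and liver RNA cannot be told apart in the strain comparisons. The part of this liver RNA was not tested. Immunoglobulin genes took 0.327% to 1.46% of all FPKM in B6 and 11.3% to 39.8% in SLE123. The summed level of 5 plasma cell markers was 34.0 to 53.5 FPKM in untreated B6 and 64.0 to 161 in treated B6. In SLE123 it was 1813 to 4724 FPKM without treatment and 950.1 to 1740 with it. All 5 plasma cell markers were called higher in SLE123 in both strain comparisons. The part of plasma cell RNA in the strain differences was not tested. A gene was called changed at a Benjamini-Hochberg adjusted p under 0.05 from limma on log2(FPKM + 1), over 13115 genes, and differences are given on that scale, which understates changes of low genes.

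Anti-CD45RB changed 4 of the 10 genes in B6 mice. The BH3-only genes Pmaip1 and Bbc3 rose most, the prosurvival gene Bcl2l1 rose by 0.39 and Fas fell by 0.19 on the log2 scale. Of all genes tested, 14.9% were called in this comparison (8.74% higher, 6.12% lower), against 3 members higher and 1 lower. Values of treated and untreated B6 libraries did not overlap for 7 of the 10 genes, where 38.0% of all genes tested did not overlap, and the median difference of the 10 genes was 0.17 against -0.002 over all genes tested. In SLE123 mice, 0 of the 10 genes were called by limma, where 0.0381% of all genes were called. At an unadjusted p under 0.05, 2 of the 10 genes passed in SLE123 (Bcl2 and Bcl2l1, both higher after treatment) and 1369 of 13115 genes did. The fit to recovered fragments also called 0 of the 10 genes. Values did not overlap for 3 of the 10 genes in SLE123 (19.7% of all genes tested), and the median difference was -0.12 against 0.038 over all genes. The difference between the treatment effects of the strains, tested as an interaction, was called for Pmaip1 and Bbc3 (2 of 10 genes, both lower in SLE123), against 3.64% of all genes (2.38% lower, 1.27% higher).

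Between the strains, 6 of the 10 genes differed in untreated mice and 6 in treated mice, where 42.9% and 52.1% of all genes tested were called. In untreated mice, Pmaip1, Bid, Bak1 and Bcl2l1 were higher in SLE123 than in B6 (22.8% of all genes were called higher) and Bcl2 and Bcl2l11 were lower (20.1%). In treated mice, Bcl2l1 and Fas were higher in SLE123 (29.6%) and Bbc3, Bcl2l11, Mcl1 and Bcl2 were lower (22.5%). Groups did not overlap for 7 of the 10 genes in untreated mice and 8 in treated mice, where 58.6% and 61.8% of all genes did not. Rescaling to TPM, which sets the FPKM sum of every library to the same value, lowered the median of all genes in SLE123 by 0.37 relative to B6 in untreated mice and by 0.17 in treated mice. Under it the higher level of Bcl2l1 in untreated SLE123 turned to -0.02 (adjusted p = 0.917), and Bak1 and Bid were no longer called, at 0.12 and 0.20, while Mcl1 (-0.44, adjusted p = 0.033) and Bbc3 (-0.54, adjusted p = 0.0198) were called lower. In treated mice the calls of Bcl2l1 and Fas were lost under TPM, at 0.02 each (adjusted p = 0.797 and 0.784), and Bax was called lower (-0.26, adjusted p = 0.0151). The strain comparisons and the treatment comparisons share libraries and are given side by side.

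**Figure D1:**
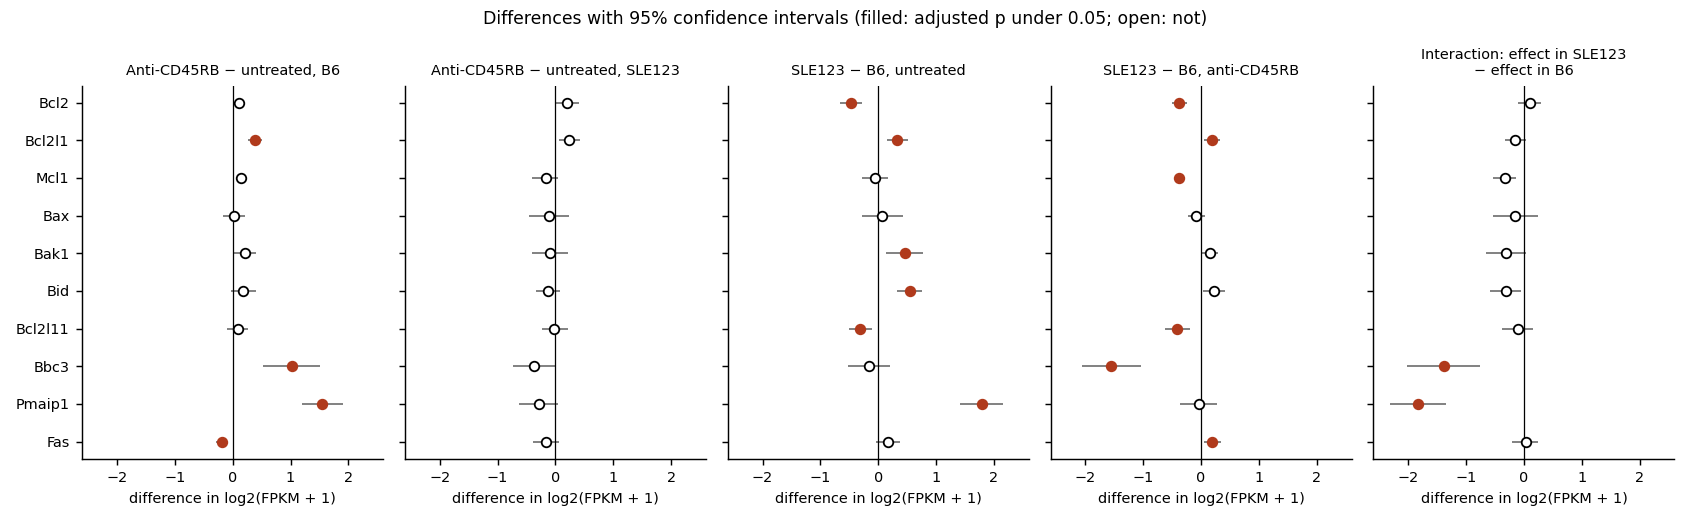
Difference in log2(FPKM + 1) of each of the 10 genes (rows) in the 5 comparisons (panels), with 95% confidence intervals from limma. Filled points passed an adjusted p of 0.05 and open points did not. Pmaip1 and Bbc3 lie farthest from 0, at 1.55 and 1.02 in B6 after treatment and at -1.83 and -1.39 in the interaction.

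Mcl1 was the most abundant of the 10 genes in every group and Bax the second, followed by Bcl2. Mean levels in treated B6 mice ran from 235 FPKM for Mcl1 to 5.59 for Pmaip1. Untreated B6 mice ranged from 211 to 1.27. The same genes gave 179.6 and 5.41 FPKM in treated SLE123 and 203 and 6.80 in untreated SLE123. Mcl1 stood above 98.3% of the genes tested in untreated B6 and Pmaip1 above 17.3%. Mcl1, Bax and Bcl2 did not overlap with each other in any group, and Pmaip1 was last in all 4 groups without overlap with the gene above it. Neighbours between them in the order often overlapped: Bak1 and Bid in both B6 groups, Fas, Bcl2l11 and Bbc3 in untreated B6, Bcl2 and Bbc3 in treated B6, Bcl2l1 and Bcl2l11 as well as Bak1, Bbc3 and Bid in treated SLE123, and Bcl2l11, Bbc3, Bcl2l1, Bid and Bak1 in untreated SLE123. Bbc3 moved most in rank, from the fourth place in treated B6 to the eighth in treated SLE123.

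**Figure D2:**
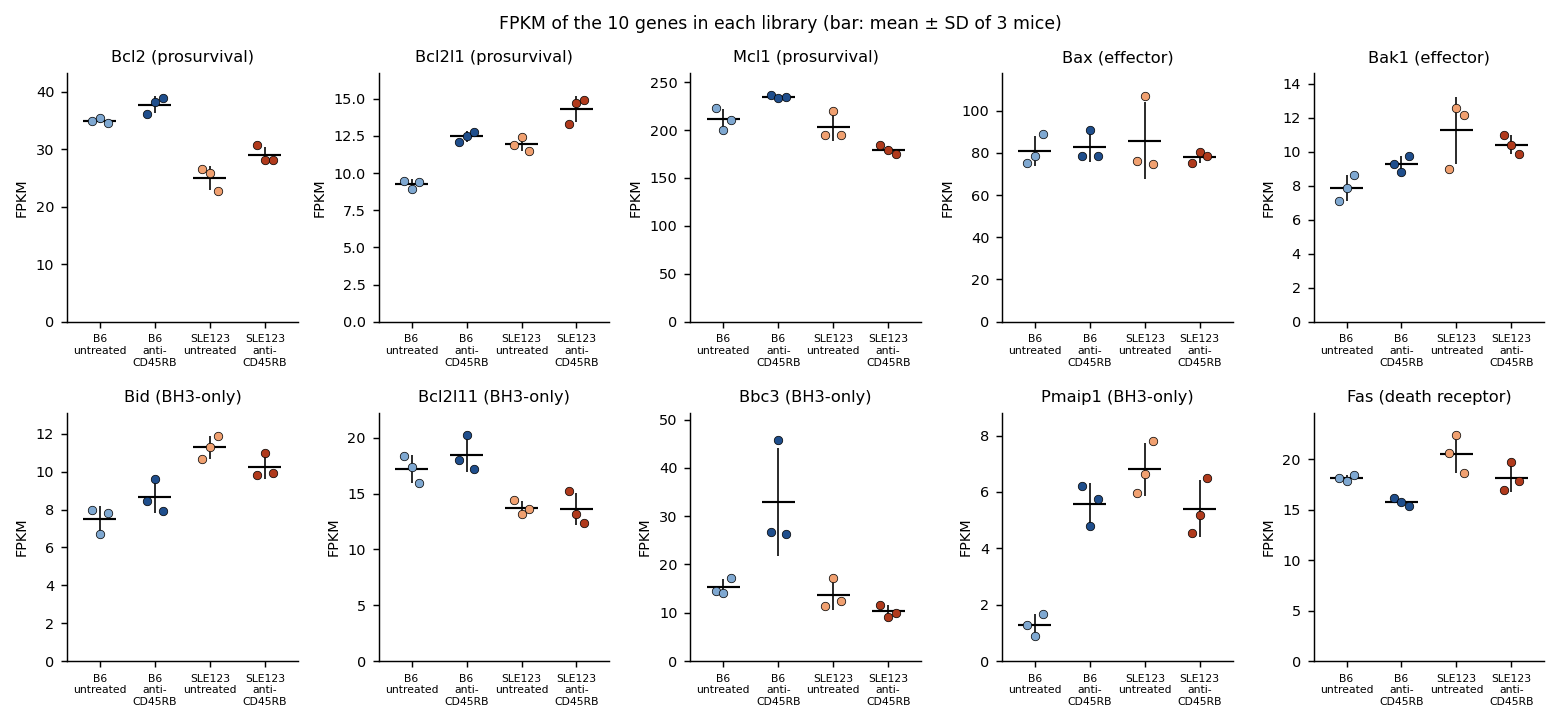
FPKM of each of the 10 genes in the 12 libraries, by group (points are libraries, bars the mean ± SD of 3 mice, each axis starts at 0). Untreated B6 stands apart for Pmaip1, with 0.878 to 1.67 FPKM against 4.56 to 7.82 in the other 9 libraries, and treated B6 stands apart for Bbc3, with 26.3 to 45.8 FPKM against 9.10 to 17.2.

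Among the prosurvival genes, Bcl2 (ENSMUSG00000057329, chr1:106538178-106714274, minus strand) was lower in SLE123 than in B6 with and without treatment. In B6 it was at 34.9, 35.5 and 34.6 FPKM in untreated replicates 3, 4 and 5 and at 36.2, 38.3 and 38.9 in treated replicates 1, 3 and 5. In SLE123 it was at 26.5, 25.8 and 22.7 FPKM in untreated replicates 1, 2 and 3 and at 30.7, 28.1 and 28.1 in treated replicates 1, 2 and 3. All 6 SLE123 libraries were below all 6 B6 libraries, and in each strain all treated libraries were above all untreated ones. The strain difference was -0.47 (SE 0.0806, adjusted p = 0.00347) in untreated mice, 28.6% in FPKM, and -0.38 (SE 0.0508, adjusted p = 0.00103) in treated mice, 23.5% in FPKM. It was called in all 16 alternatives for untreated mice and all 17 for treated mice. The treatment differences of 0.11 in B6 (adjusted p = 0.0997) and 0.20 in SLE123 (adjusted p = 0.469) were not called.

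Bcl2l1 (ENSMUSG00000007659, chr2:152780668-152831728, minus strand), whose long isoform BCL-XL is induced in activated T cells, was the only prosurvival gene of the 10 called after treatment in B6. It was at 9.49, 8.93 and 9.41 FPKM in untreated B6 and at 12.1, 12.5 and 12.8 in treated B6, replicates in the same order as for Bcl2. SLE123 libraries had 11.9, 12.4 and 11.5 FPKM without treatment and at 13.3, 14.7 and 14.9 with it. Untreated B6 libraries were the lowest of the 4 groups and treated SLE123 libraries the highest, with no overlap in either strain between treated and untreated mice. The rise in B6 was 34.1% in FPKM, or 0.39 on the log2 scale (SE 0.0506, adjusted p = 0.00575). It was called in 16 of 17 alternatives. In SLE123 the difference was 0.24 (95% interval 0.06 to 0.43, adjusted p = 0.465), and the interaction of -0.15 was not called (adjusted p = 0.31). Gene-level FPKM does not separate the long isoform from the shorter proapoptotic one. SLE123 exceeded B6 by 0.33 in untreated mice (adjusted p = 0.0123) and by 0.19 in treated mice (adjusted p = 0.0296), and the second value was called in 8 of 17 alternatives, among those with 1 library left out only without treated SLE123 replicate 1 (adjusted p 0.0528 to 0.0999 in the other 5). The first was lost without untreated B6 replicate 4 (adjusted p = 0.0635).

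Mcl1 (ENSMUSG00000038612, chr3:95658788-95663176, plus strand) encodes a short-lived prosurvival protein that binds NOXA, PUMA and BIM. It was at 223, 200.4 and 210.1 FPKM in untreated B6 and at 237, 233 and 235 in treated B6. SLE123 libraries had 195, 219.5 and 195 FPKM without treatment and at 184, 179 and 175 with it. Treated libraries were above untreated ones in B6 and below them in SLE123, in both cases without overlap in FPKM. Neither difference was called, at 0.15 in B6 (adjusted p = 0.051) and -0.17 in SLE123 (adjusted p = 0.496, turning to 0.02 under TPM), and the interaction was -0.33 (SE 0.0917, adjusted p = 0.0698). The B6 difference passed in 6 of 17 alternatives, with adjusted p between 0.0335 and 0.294, and the interaction in 3 of 22. Without untreated B6 replicate 3 the adjusted p was 0.0374 for the B6 difference, and without untreated SLE123 replicate 1 it was 0.0219 for the interaction. Treated SLE123 mice had 23.6% less Mcl1 FPKM than treated B6 mice, a difference of -0.39 (SE 0.0352, adjusted p = 0.000215) that was called in all 17 alternatives. The untreated strains differed by -0.06 (95% interval -0.28 to 0.17), by 0.06 without immunoglobulin genes in the scaling, and by -0.44 under TPM, the 1 alternative of 16 that called it.

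Of the effectors, Bax (ENSMUSG00000003873, chr7:45461697-45466898, minus strand) was called in 0 of the 5 comparisons. It was at 75, 78.5 and 88.8 FPKM in untreated B6, 78.4 to 90.7 in treated B6, 75 to 80.3 in treated SLE123 and 75.9, 107 and 74.5 in untreated SLE123. The groups overlapped in every pairwise comparison. The treated strains differed by -0.08 (adjusted p = 0.336), or by -0.26 under TPM (adjusted p = 0.0151), and untreated SLE123 replicate 2 was the highest library. The 95% intervals of the differences were -0.16 to 0.22 for treatment in B6 and -0.46 to 0.23 for treatment in SLE123. Bak1 (ENSMUSG00000057789, chr17:27019810-27029009, minus strand) encodes the effector that resides on the outer mitochondrial membrane. Its values were 7.09, 7.85 and 8.64 FPKM in untreated B6, 9.27, 8.80 and 9.74 in treated B6, 9.0, 12.6 and 12.2 in untreated SLE123 and 11, 10.4 and 9.89 in treated SLE123. All SLE123 libraries exceeded all untreated B6 libraries, and treated B6 libraries lay just above untreated ones. The untreated strains differed by 0.46 (SE 0.139, adjusted p = 0.0322), but this was called in 9 of 16 alternatives and in 1 of the 6 in which 1 library was left out (adjusted p 0.00446 without untreated SLE123 replicate 1 and 0.0544 to 0.116 without any other). The difference of 0.22 after treatment in B6 was not called (adjusted p = 0.113). Exons of Ggnbp1 on the opposite strand share 437 bases with Bak1 (18.2% of its exon bases), and Ggnbp1 was at no more than 1.06 FPKM.

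Bid and Bcl2l11 differed between the strains in opposite directions. Bid (ENSMUSG00000004446, chr6:120891930-120916853, minus strand), which caspase 8 cleaves to its active form, was at 7.98, 6.73 and 7.80 FPKM in untreated B6 and 8.43, 9.61 and 7.95 in treated B6. In SLE123 it was at 10.7, 11.3 and 11.9 FPKM without treatment and 9.84, 11 and 9.96 with it. Every SLE123 library was above every B6 library, while treated and untreated mice overlapped within each strain. The untreated strains differed by 0.54 (SE 0.094, adjusted p = 0.00382), 50.8% in FPKM, called in 15 of 16 alternatives. The treated strains differed by 0.22 (adjusted p = 0.0509), called in 4 of 17, including without treated B6 replicate 3 (0.29, adjusted p = 0.0177). Bid shares 628 exon bases (17.7%) with Bcl2l13 on the opposite strand, which reached 11.5 FPKM, and since the sources do not state whether these libraries kept strand, reads of the shared part cannot be told apart.
Bcl2l11 (ENSMUSG00000027381, chr2:128126038-128162547, plus strand) was at 18.4, 17.4 and 15.9 FPKM in untreated B6 and 18, 20.2 and 17.2 in treated B6. In SLE123 it was at 14.4, 13.2 and 13.6 FPKM without treatment and 15.2, 13.2 and 12.4 with it. The SLE123 libraries were all below the B6 libraries, and treatment left both strains overlapping. The strain difference was -0.31 (SE 0.0848, adjusted p = 0.0235) in untreated mice, 20.3% in FPKM, called in 12 of 16 alternatives. The losses included leaving out untreated B6 replicate 3 (adjusted p = 0.105) or 4 (adjusted p = 0.0889) and untreated SLE123 replicate 3 (adjusted p = 0.0551). In treated mice it was -0.42 (SE 0.0888, adjusted p = 0.00747), 26.3% in FPKM, called in 16 of 17. Treatment differences had 95% intervals from -0.09 to 0.27 (B6) and from -0.24 to 0.21 (SLE123).

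Bbc3 (ENSMUSG00000002083, chr7:16308393-16318205, plus strand), a BH3-only gene induced by p53 and FOXO factors, rose in B6 after anti-CD45RB. Untreated B6 libraries had 14.6, 14 and 17.2 FPKM and treated ones 26.8, 45.8 and 26.3, the highest in replicate 3. Untreated SLE123 libraries had 11.4, 17.1 and 12.5 FPKM and treated ones 11.7, 9.10 and 10. Treated B6 was above every other library, and the SLE123 groups overlapped each other. The mean was 2.16-fold higher in treated than in untreated B6 (33.0 ± 11.1 against 15.3 ± 1.72 FPKM, SD, n = 3), a difference of 1.02 (SE 0.207, adjusted p = 0.023) that was the 227th largest rise of 13115 genes. Without treated replicate 3 it was 0.76 (adjusted p = 0.00875). It was called in 13 of 17 alternatives, and leaving out untreated B6 replicate 3 or 4 gave an adjusted p of 0.0743 or 0.0862. In SLE123 the difference was -0.37 (95% interval -0.74 to 0.01, adjusted p = 0.469). The interaction was -1.39 (SE 0.286, adjusted p = 0.0261), called in 17 of 22 alternatives. The call was lost without untreated B6 replicate 3 or 4 and without treated SLE123 replicate 2 or 3, with adjusted p between 0.0638 and 0.0753. Treated SLE123 mice were 3.20-fold below treated B6 mice, at -1.55 (SE 0.212, adjusted p = 0.00108), the 58th largest fall in that comparison, and this held in all 17 alternatives. Untreated mice of the strains differed by -0.16 (adjusted p = 0.423), a difference called in 1 of 16 alternatives, TPM, at -0.54.
Markers of NK cells and dendritic cells moved in the same libraries: the summed level of 4 NK cell genes was 29.8 to 37.6 FPKM in treated B6, 17.6 to 19.4 in untreated B6, 21.2 to 27.6 in treated SLE123 and 16.1 to 18.6 in untreated SLE123, and 2 of the 4 were called higher in treated than untreated B6. The summed level of 4 dendritic cell genes was 5.16 to 6.88 FPKM in treated B6, 0.780 to 1.21 in untreated B6, 1.32 to 1.35 in treated SLE123 and 1.67 to 4.23 in untreated SLE123, and 2 of the 3 tested were called higher in treated than untreated B6. No gene of either list was at 0 throughout a group, and their part in the Bbc3 result was not tested.

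Pmaip1 (ENSMUSG00000024521, on chromosome 18, plus strand) encodes NOXA, a BH3-only protein that binds MCL1, and it had the largest changes of the 10 genes. Untreated B6 libraries had 1.27, 0.878 and 1.67 FPKM, from 42 to 71 fragments each, and treated B6 libraries had 6.21, 4.80 and 5.75, from 208 to 256 fragments. Untreated SLE123 libraries had 5.95, 6.63 and 7.82 FPKM and treated ones 4.56, 5.17 and 6.51. Untreated B6 was below all other libraries, and treated B6 overlapped both SLE123 groups. The mean was 4.40-fold higher after treatment in B6 (5.59 ± 0.720 against 1.27 ± 0.395 FPKM, SD, n = 3), a difference of 1.55 (SE 0.147, adjusted p = 0.00197) that was the 84th largest rise of 13115 genes. It was called in 16 of 17 alternatives. In SLE123 the difference was -0.29 (95% interval -0.63 to 0.05, adjusted p = 0.48), and the interaction of -1.83 (SE 0.217, adjusted p = 0.0019) was called in all 22 alternatives. Untreated SLE123 exceeded untreated B6 5.35-fold, at 1.79 (SE 0.158, adjusted p = 0.000183), called in all 16 alternatives. The treated strains differed by -0.04 (95% interval -0.36 to 0.27).
Markers of several non-T cells had the same order of groups at its low end. The 6 B cell markers, given above, were lowest in untreated B6, and 5 of them were called higher after treatment in B6 and 6 were called higher in untreated SLE123 than in untreated B6. The summed level of 4 basophil genes was 0.473 to 1.33 FPKM in untreated B6, 10.1 to 24.9 in treated B6, 24.2 to 32.2 in treated SLE123 and 89.2 to 101 in untreated SLE123. The summed level of 7 myeloid genes was 8.61 to 15.1 FPKM in untreated B6, 53.6 to 122 in treated B6, 25.2 to 51.6 in treated SLE123 and 45.9 to 96.6 in untreated SLE123. No gene of these 3 lists was at 0 throughout a group. Their part in the Pmaip1 result was not tested. Without untreated SLE123 replicate 3, which held the most B cell RNA, the interaction of Pmaip1 was -1.74 (adjusted p = 0.00274). This does not separate Pmaip1 from B cell RNA. Untreated SLE123 replicates 1 and 2 still had B cell marker sums of 62.0 and 84.9 FPKM, against 6.11 to 7.30 in untreated B6.

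**Figure D3:**
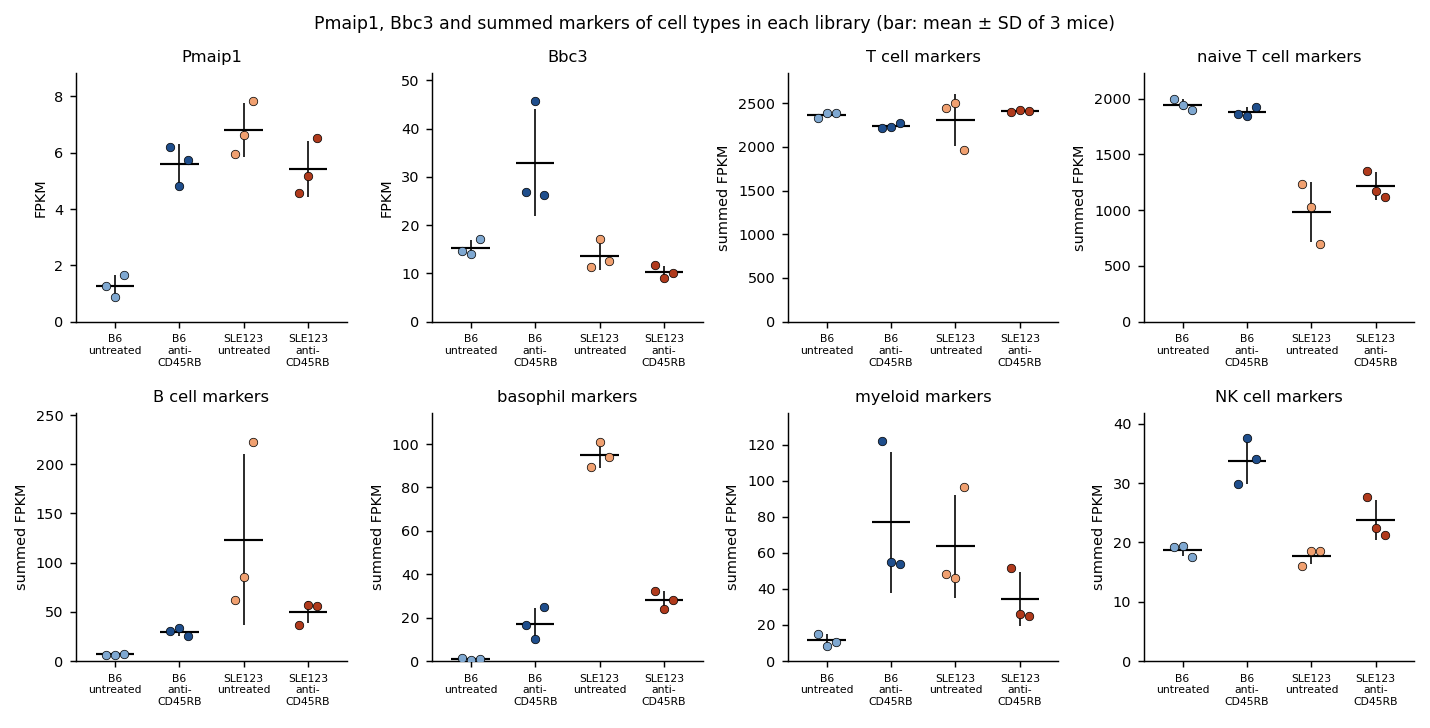
FPKM of Pmaip1 and Bbc3 and summed FPKM of 6 marker lists in the 12 libraries, by group (points are libraries, bars the mean ± SD of 3 mice, axes start at 0). B cell, basophil and myeloid markers are lowest in untreated B6, as is Pmaip1, and NK cell markers are highest in treated B6, as is Bbc3.

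Fas (ENSMUSG00000024778, chr19:34290666-34327772, plus strand) was lower after treatment in B6. It was at 18.1, 17.8 and 18.4 FPKM in untreated B6 and at 16.1, 15.7 and 15.4 in treated B6. In SLE123 it was at 20.6, 22.4 and 18.6 FPKM without treatment and at 16.9, 19.7 and 17.8 with it. Treated B6 libraries were below all others, and the SLE123 groups overlapped. The fall in B6 was 13.1% in FPKM, or -0.19 (SE 0.0406, adjusted p = 0.0255), and was called in 10 of 17 alternatives but in only 1 of the 6 that left out a library (without treated replicate 1, adjusted p 0.0433, against 0.0635 to 0.0872 without treated replicate 3 or 5 or any untreated one). The difference in SLE123 was -0.17 (95% interval -0.39 to 0.06, adjusted p = 0.506), turning to 0.02 under TPM, and the interaction was 0.03 (95% interval -0.20 to 0.25). Treated SLE123 exceeded treated B6 by 0.19 (adjusted p = 0.0341, called in 6 of 17 alternatives, and with 1 library left out only without treated SLE123 replicate 1, at 0.0168 against 0.058 to 0.1 in the other 5). The untreated strains differed by 0.17 (adjusted p = 0.155), or by -0.20 under TPM. Its ligand gene Fasl was at 7.74 to 9.35 FPKM in untreated B6, 8.50 to 9.98 in treated B6, 5.67 to 7.76 in untreated SLE123 and 7.58 to 8.47 in treated SLE123, and was called in 0 of the 5 comparisons. The adaptor gene Fadd was called between the treated strains, at 0.23 (adjusted p = 0.0474), but not under TPM (0.11, adjusted p = 0.423). Casp8, the initiator caspase, was lower in SLE123, by -0.53 in untreated mice (adjusted p = 0.00445) and -0.19 in treated mice (adjusted p = 0.00805), and its inhibitor gene Cflar was not called in either, at -0.31 (adjusted p = 0.0733) and -0.12 (adjusted p = 0.0545).

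Ratios between genes within a library do not depend on how libraries are scaled, and they are given without a test. Mcl1 exceeded Pmaip1 126-fold to 228-fold in untreated B6 libraries, 38.1-fold to 48.6-fold in treated B6, 24.9-fold to 33.1-fold in untreated SLE123 and 26.9-fold to 40.4-fold in treated SLE123. Untreated B6 thus stood apart from the other 3 groups, and treatment lowered the ratio in B6 by 2.02 on the log2 scale with no overlap, against a difference of 0.16 with overlap in SLE123. Bcl2 was 1.89 to 2.18 times Bcl2l11 in untreated B6 and 1.90 to 2.27 times in treated B6. In SLE123 it was 1.67 to 1.96 times Bcl2l11 without treatment and 2.02 to 2.27 times with it. The ratio of Bcl2 to Bcl2l11 therefore overlapped between the strains, although both genes were lower in SLE123.
Bcl2l1 to Bcl2l11 rose stepwise over the groups, with geometric means of 0.539 in untreated B6, 0.676 in treated B6, 0.870 in untreated SLE123 and 1.06 in treated SLE123, and the strains did not overlap. Bcl2 to Bax was 0.390 to 0.465 in untreated B6, 0.422 to 0.497 in treated B6, 0.240 to 0.349 in untreated SLE123 and 0.349 to 0.409 in treated SLE123, so that SLE123 was below B6 within each treatment. Bcl2 to Mcl1 was 0.117 to 0.136 in untreated SLE123 and 0.153 to 0.177 in the other 9 libraries. It was higher after treatment in SLE123 by 0.39 on the log2 scale, without overlap. Mcl1 to Bcl2l11 was 11.5 to 13.2 in untreated B6, 11.6 to 13.7 in treated B6, 13.6 to 16.7 in untreated SLE123 and 12.1 to 14.1 in treated SLE123, and only the untreated strains did not overlap.

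**Figure D4:**
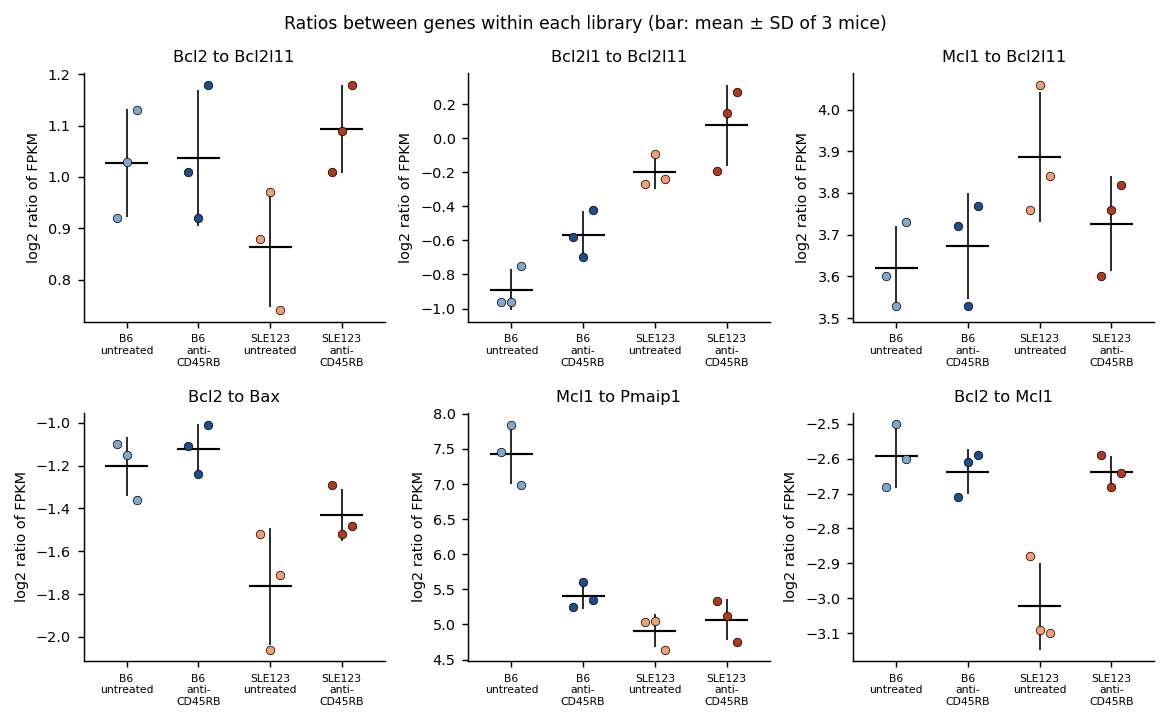
Log2 ratio of FPKM for 6 pairs of genes in the 12 libraries, by group (points are libraries, bars the mean ± SD of 3 mice; axes do not start at 0). Mcl1 to Pmaip1 is highest in untreated B6, with a mean of 7.42 against 4.91 to 5.40 in the other groups, and Bcl2 to Mcl1 is lowest in untreated SLE123, at -3.02.

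The wider apoptosis pathway was described by 6 lists with 69 genes, of which 65 were tested. After treatment in B6, 6 of the 65 were called (5 higher, 1 lower), a share of 9.23% against 14.9% of all genes, and their median difference was 0.05 against -0.002. This count was 10 with voom, 1 with all 12 libraries in one fit and 2 to 7 with 1 library left out (2 without treated replicate 3 or 5 or untreated replicate 4, 3 without untreated replicate 5). The largest was Fcmr (also called Toso), a receptor of IgM that is abundant on B cells and was first described as an inhibitor of Fas signalling, at 0.242 to 0.350 FPKM in untreated B6 and 5.25 to 6.95 in treated B6, a difference of 2.40 (adjusted p = 0.000274). Untreated SLE123 had 7.22, 10.5 and 37.9 FPKM of Fcmr, the highest in replicate 3, the library with the most B cell RNA, and the part of B cells was not tested. The others were Perp, a p53 target, at 0.35 (adjusted p = 0.0306) from 0.0654 to 0.163 FPKM, Fbxw7, a ubiquitin ligase subunit that targets MCL1, at 0.32 (adjusted p = 0.0203), Ripk1 at 0.26 (adjusted p = 0.0265), Apaf1, the scaffold of the apoptosome, at 0.23 (adjusted p = 0.0326) and Mdm4, an inhibitor of p53, at -0.24 (adjusted p = 0.0125). Of the other BCL2 family genes, 0 of 11 tested were called by limma in B6, among them Bmf at 0.14 (adjusted p = 0.539) and Bad at 0.21 (adjusted p = 0.243). In SLE123, 0 of the 65 genes were called, with a median of 0.04 against 0.038. The interaction was called for 2 of the 65, Fcmr at -4.05 (adjusted p = 0.00513) and Tnfsf10, the TRAIL gene, at 0.53 (adjusted p = 0.0479), a share of 3.08% against 3.64% of all genes. That count was 0 with voom, 10 without untreated SLE123 replicate 1 and 1 without any single B6 or treated SLE123 library.

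Between the strains, 36 of the 65 genes were called in untreated mice (20 higher and 16 lower in SLE123) and 35 in treated mice (20 higher and 15 lower), shares of 55.4% and 53.8% against 42.9% and 52.1% of all genes, with medians of 0.01 and 0.03 against -0.025 and 0.028. With 1 library left out, 23 to 33 were called in untreated mice (23 without untreated B6 replicate 3). Among the other prosurvival genes, all 3 tested were higher in SLE123 in both comparisons. Bcl2l2 (BCL-W) was at 3.78 ± 0.274 FPKM in untreated SLE123 against 1.10 ± 0.201 in untreated B6, Bcl2a1d at 22.1 ± 0.566 against 8.39 ± 0.502 and Bcl2a1b at 1.71 ± 0.198 against 0.772 ± 0.152 (mean ± SD, n = 3). All 3 were also called higher under TPM, at 0.54 to 1.13 in untreated mice. The Bcl2a1 genes are near-identical copies, so the split of reads between them is uncertain. Of the other BCL2 family genes not listed as prosurvival, 4 of 8 were called in untreated mice (50% against 42.9% of all genes). Bad was higher by 0.50 (adjusted p = 0.00389) and Bnip3 by 0.40, both not called under TPM (0.17 and 0.12). Bcl2l12 was at -0.50 and Bnip3l at -0.24 (-0.12, not called, without immunoglobulin genes in the scaling). In treated mice Bnip3l alone was called, at -0.19 (adjusted p = 0.00648).
Birc5 (survivin), an inhibitor of apoptosis protein that is made in dividing cells, differed by 1.51 in untreated mice (adjusted p = 0.00176) and 1.23 in treated mice (adjusted p = 0.00107), while the summed level of 4 cell cycle genes was 69.2 to 112 FPKM in SLE123 and 20.8 to 29.5 in B6. Of the p53 list, 10 of 13 genes were called in untreated mice (6 higher, 4 lower) and 9 in treated mice (5 higher, 4 lower). These were shares of 76.9% and 69.2% against the 42.9% and 52.1% of all genes. The list was chosen with earlier results of these data known, so its shares are descriptive only. Cdkn1a was higher by 1.34 in untreated and 1.10 in treated mice, and Sesn1 was at -0.75 and -1.0. Foxo1 and Foxo3, which encode transcription factors known to activate Bcl2l11 and Bbc3, were at -0.97 and -0.43 in untreated mice. In treated mice they were at -0.50 and -0.45. Their part in the levels of Bcl2l11 and Bbc3 was not tested. Markers of naive T cells also differed between the strains. The summed level of 6 genes was 1841 to 1998 FPKM in B6 and 697 to 1355 in SLE123. All 6 were called lower in SLE123 in both comparisons. The summed level of 5 regulatory T cell markers was 42.2 to 59.8 FPKM in B6 and 153 to 190.1 in SLE123, and the part of these populations in the strain differences was not tested.

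**Figure D5:**
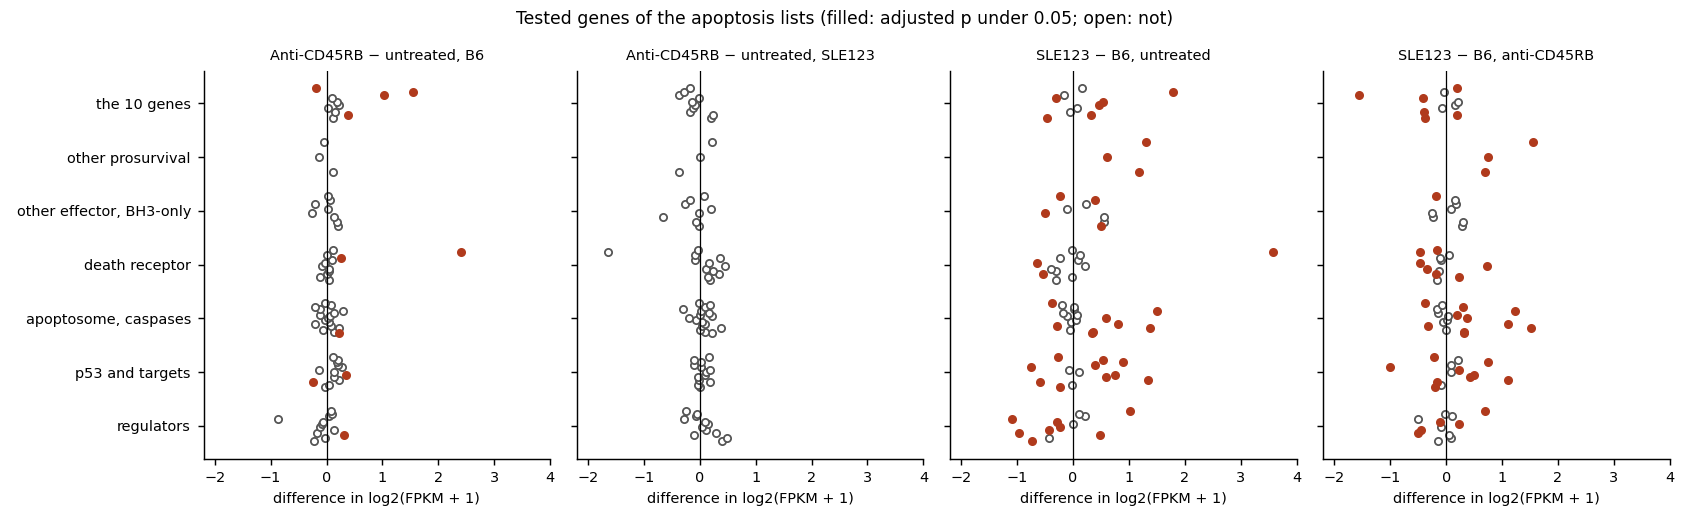
Difference in log2(FPKM + 1) of every tested gene of the 10-gene set and the 6 apoptosis lists (rows) in the 4 pairwise comparisons (panels). Filled points passed an adjusted p of 0.05. Few points are filled for treatment in B6 (4 of the 10 genes and 6 of the 65 list genes), none for treatment in SLE123, and over 30 list genes in each strain comparison.

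The 9 genes called in at least 1 comparison were each set against all named protein-coding genes for the most similar pattern over the 12 libraries, as the smallest root mean square difference of centred log2(FPKM + 1). Bcl2 was followed most closely by Ttc7, Rad9a and Limk2, at differences of 0.0434 to 0.0469 against its own deviation of 0.235 from its mean. Bcl2l1 was nearest to Tbx21, the gene of the Th1 factor T-bet, at 0.0823, which had 9.67 to 11 FPKM in untreated B6, 13.7 to 15.3 in treated B6, 11.8 to 13.8 in untreated SLE123 and 16.3 to 16.9 in treated SLE123. The next for Bcl2l1 were Lsr and Rragd. Mcl1 was nearest to Slc25a38, Jmjd6 and Max (0.0462 to 0.0505), Bak1 to Btg3, Pbdc1 and Atp5k (0.0760 to 0.0824), Bid to Cmtm3, Tpd52 and Rnpep (0.0524 to 0.0689), Bcl2l11 to Zbtb18, Tle4 and Herc4 (0.0614 to 0.0740) and Fas to Pbxip1, Tmem177 and Smim10l1 (0.0457 to 0.0701). Bbc3 was nearest to Cd163l1, Klrb1b and Nkg7, at 0.220 to 0.270 against its own deviation of 0.619. Cd163l1, the nearest, was at 2.25 to 3.40 FPKM in treated B6 and 0.640 to 0.987 in untreated B6. In SLE123 it was at 0.0768 to 0.224 FPKM with treatment and 0.123 to 0.453 without it. Nkg7, a gene of cytotoxic granules and the last of the 3, was at 60.7 to 73.4 FPKM in treated B6. It was at 26.5 to 37.3 in the other 9 libraries. Pmaip1 was nearest to Rab44, Fcgr2b and Fes, at 0.226 to 0.242 against 0.726, and Fcgr2b, the inhibitory Fc receptor of B and myeloid cells, was at 0.123 to 0.220 FPKM in untreated B6 and 1.21 to 3.48 in the other 9 libraries.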

How the data were processed

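CD4+ T cells of 12 mice gave 1 library each. Groups came from the labels' strain and treatment fields, since the SLE123 titles hold a letter C that the labels do not explain. The methods also describe CD25+ and CD25- sorting, which no sample title mentions. Deposited by the authors were FPKM values per Ensembl gene. The submitters' processing notes name CASAVA 1.8, STAR and mm10; the annotation and the counting program are not given in the sources used here, and the methods name DESeq2 for the authors' own tests.

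Symbols and coordinates came from GENCODE M21 (GRCm38), which held 34490 of the 35275 identifiers. Values were whole multiples of 1 fragment for 99.99% of 23230 genes above 0 (tolerance 0.001 fragments), and 3 fragments on 2000 bases correspond to 0.0634 to 0.111 FPKM; this covers counting error only. Replicates of a group differed by more than sampling noise (chi-square per degree of freedom 2.33 to 70.5). Every value column belonged to a sample.

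Genes averaging 0.5 FPKM or more were tested on the log2(FPKM + 1) scale with limma 3.58.1 (lmFit, eBayes with trend) in R 4.3.3, on the 6 libraries of each pair of groups and on all 12 for the interaction (effect in SLE123 minus that in B6), with Benjamini-Hochberg adjustment and a threshold of 0.05. The fits were checked on simulated data. Tables and figures used Python 3.11.15, pandas 2.3.3 and matplotlib 3.10.9. Genes named are the 10 genes, list genes that were called (at most the 4 largest changes per list and comparison) or partners of the 10, and the 3 genes nearest in pattern. The members and lists were chosen with earlier results of these data known. Other settings tried were 0.1 as pseudocount, a minimum mean of 1 FPKM or none, TPM, median centring, eBayes without trend or robust, voom on recovered fragments with TMM factors, one fit over all 12 libraries, a block for replicate number and leaving out each library. Scaling without immunoglobulin genes was added after the data were seen. Some genes of the lists are counted but not reported here by name.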

Additional observations from a re-analysis of the deposited data

Results flagged for a closer look

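The treatment effect of Pmaip1 differed between the strains by -1.83 on the log2 scale (SLE123 minus B6, limma interaction, adjusted p = 0.0019), from 1.55 in B6 to -0.29 in SLE123, with all 3 treated B6 libraries above all 3 untreated ones. The treatment effect of Bbc3 differed by -1.39 (adjusted p = 0.0261), from 1.02 in B6 to -0.37 in SLE123, with the highest value, 45.8 FPKM, in treated B6 replicate 3. Groups of 3 libraries were too small for an outlier test.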

How the results depend on the processing

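Of the 10 genes, the number called kept within 1.5 times of the reported count in 79 of 89 alternative counts. This compares counts and not which genes were called, and the count for treatment in SLE123 was 0 in every setting. Between untreated strains TPM gave 5 against 6, although Bcl2l1, Bak1 and Bid lost their calls and Mcl1 and Bbc3 gained them. With the replicate number as a block, the number of the 10 genes called was 0 in B6 (0 of all genes). It was 3 between the treated strains (3414 of all genes against 6836) and 1 for the interaction (34 of all genes against 478). The blocked fits in B6 and between treated strains left few residual degrees of freedom, since some replicate numbers occurred in only 1 group. Lower counts in these fits cannot be told apart from this loss. Same-numbered libraries had deviations with correlations of -0.14 and -0.0936 in B6 and 0.137, -0.161 and 0.266 in SLE123, so the numbers were not taken as a pairing; no blocked fit of the untreated strains had residual degrees of freedom. Leaving out 1 library gave 2 to 4 in B6 (2 without untreated B6 replicate 4), 0 to 0 in SLE123, 3 to 6 between untreated strains (3 without untreated B6 replicate 4), 4 to 6 between treated strains and 1 to 4 for the interaction. The interaction count was 4 without untreated SLE123 replicate 1 and 1 without untreated B6 replicate 3 or 4 or treated SLE123 replicate 2 or 3. Bcl2l1 between untreated strains reversed under TPM, to -0.02. All genes called moved over 1.5 times in B6 without a filter (1134) and with all 12 libraries in one fit (815 against 1948), in SLE123 with TPM (21), voom (3) and one fit (53 against 5), and on leaving out 1 library: 675 to 1393 in B6, 1 to 7 in SLE123, 3672 to 6469 between untreated strains and 205 to 2917 for the interaction. Under TPM, 1914 genes were higher and 5974 lower in untreated SLE123, against 2990 and 2631, and 2442 and 4480 in treated SLE123, against 3881 and 2955. Voom on recovered fragments called 2709 genes in B6, 5674 and 7065 between untreated and treated strains and 424 for the interaction. Scaling without immunoglobulin genes, added after the data were seen, shifted the median of all genes by 0.11 in untreated strains, ended the call of Bcl2l11 there (-0.19, adjusted p = 0.101) and called Fas (0.28, adjusted p = 0.0219); between treated strains it called 8 of the 10 genes, adding Bak1 (0.21, adjusted p = 0.0184) and Bid (0.28, adjusted p = 0.0271), for the interaction 3, adding Mcl1 (-0.39, adjusted p = 0.0369), and in B6 5, adding Mcl1 (0.16, adjusted p = 0.0493). The pathway lists gave 0 with the replicate block in B6 and for the interaction and 18 between treated strains (35 without it). The causes were not tested. Group sizes of 3 and low fragment numbers of Pmaip1 in untreated B6 (42 to 71) limit precision.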
